A study of Rattus norvegicus with 3 samples.

Results

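The genes described here are 10 transcriptional targets and inhibitors of the ERK pathway, named Dusp4, Dusp5, Dusp6, Spry2, Spry4, Spred1, Spred2, Etv4, Etv5 and Phlda1. They were chosen by gene symbol and not by a measured value, though with earlier results of these data known, and all 10 were found among 15037 named genes, each with 1 probe set. The study measured RNA of FRSK cells, a line of keratinocytes from fetal rat skin, on 3 whole-transcript arrays with 1 array for each group. The control group was unstimulated, another culture received the opioid pentapeptide Met-enkephalin (Met-ENK), and the remaining one received β-END(1-9), a fragment of β-endorphin that starts with the Met-ENK sequence and goes on with further residues. Each peptide was given at 100 nM for 24 h, and all cultures were of the same line in DMEM with serum. The sources used here do not say whether the control received vehicle or how long it was kept. With 1 array per group there is no spread between cultures, so no test, standard error or p-value can be given, and every difference below is one between single arrays.

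ERK is the last kinase of the cascade that runs from growth factor receptors through RAS, RAF and MEK. Active ERK phosphorylates transcription factors and so switches on genes whose products dampen the cascade again, and the transcripts of these genes are widely used as a readout of ERK activity. In keratinocytes the pathway acts below the EGF receptor in proliferation and in wound closure. Dusp4, Dusp5 and Dusp6 encode phosphatases that remove the activating phosphates from MAP kinases, with Dusp6 acting in the cytoplasm and Dusp4 and Dusp5 in the nucleus. Sprouty proteins (Spry2, Spry4) and the related Spred proteins (Spred1, Spred2) inhibit signalling between the receptor and RAF. Etv4 and Etv5 are transcription factors of the ETS family that are induced downstream of receptor tyrosine kinases, and Phlda1 encodes a protein with a pleckstrin homology-like domain.

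Promoter sequence was available for 8 of the 10 genes in the RefSeq table for rat assembly GRCr8. The 250 bases before the start site were searched on both strands for 4 motifs through which ERK-dependent transcription factors bind. These were the CArG box of serum response factor, the cAMP response element TGACGTCA, the AP-1 site TGANTCA and the ETS core CCGGAA. Both promoters below are printed 5′ to 3′ on the strand of the gene with motif matches in capitals. Spry2 is shown because it was the gene of the set past 1.5-fold at a signal above background, and Dusp5 because its promoter held the CArG boxes of the set. The Spry2 window lies at chr15:89111927-89112176 on the minus strand, before the outermost start site of the gene, and that of Dusp5 at chr1:262543524-262543773 on the plus strand.
Spry2: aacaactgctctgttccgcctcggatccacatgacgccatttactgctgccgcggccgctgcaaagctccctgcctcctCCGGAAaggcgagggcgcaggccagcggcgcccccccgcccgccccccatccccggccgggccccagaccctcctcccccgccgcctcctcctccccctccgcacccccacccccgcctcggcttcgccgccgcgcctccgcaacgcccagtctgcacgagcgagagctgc
Dusp5: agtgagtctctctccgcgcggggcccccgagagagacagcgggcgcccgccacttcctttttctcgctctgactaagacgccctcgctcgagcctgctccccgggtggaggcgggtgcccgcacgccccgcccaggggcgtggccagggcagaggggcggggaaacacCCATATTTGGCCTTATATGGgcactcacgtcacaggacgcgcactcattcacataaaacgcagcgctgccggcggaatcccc
The Spry2 window held 1 ETS core, at -171 to -166 from the start site. The Dusp5 window held 2 CArG boxes that abut without overlap, CCATATTTGG at -82 to -73 and CCTTATATGG at -72 to -63. Windows of Phlda1 and Spry4 each held 1 ETS core on the opposite strand. No match of the 4 motifs was found in the windows of Dusp6, Etv5, Spred1 and Spred2, or in a second, inner window of Spry2. The windows of Dusp6 and Etv5 also lay before a start site other than the outermost, so the sequence before the outermost one was not searched. Among all 33469 promoter windows of this length, 1.5% held a CArG box, 1.59% the cAMP response element, 6.34% the AP-1 site and 12.6% the ETS core. A match is a run of letters and no evidence of binding in these cells.

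Values are log2 signals as deposited, and a difference of 0.58 on this scale is 1.5-fold. Genes past this size were counted. The 23 probe sets that the array names as background lay between 2.51 and 7.57, and 22 of them had the same value on all 3 arrays. Signals were above this range on every array for 7 of the 10 genes (Dusp5, Dusp6, Spry2, Spred1, Spred2, Etv5 and Phlda1). Those of Dusp4, Spry4 and Etv4 lay within it, so their RNA cannot be separated from background by level. Probe sets differ in their response to RNA, so signals of different genes are not ranked against each other. All 10 measured markers of basal keratinocytes were above background, among them Krt14 and Tp63, while 7 more listed markers such as Krt5 were not analysed here. Above background were also 2 of 10 fibroblast markers (Col1a1 and Col3a1), 1 of 6 melanocyte markers (Mitf), 0 of 6 endothelial markers and 0 of 6 immune markers.

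**Figure D1:**
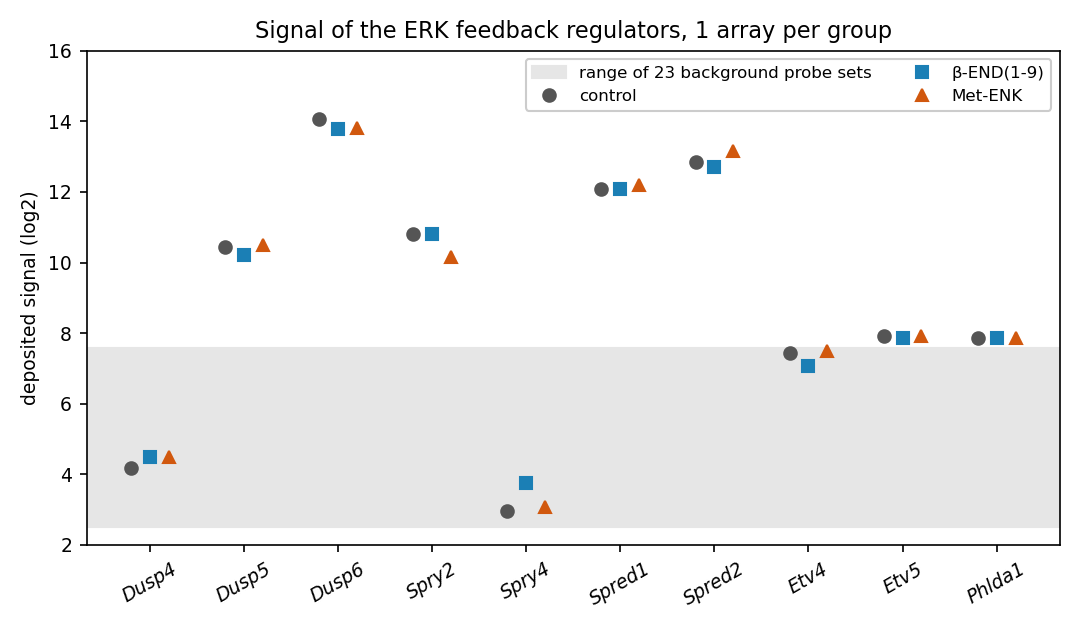
Deposited log2 signal (vertical axis) of the 10 ERK feedback regulators on the control (circles), β-END(1-9) (squares) and Met-ENK (triangles) arrays, with 1 point per array and the range of the 23 background probe sets shaded. Dusp4, Spry4 and Etv4 lie within the shaded range, and Spry2 is the gene above it whose Met-ENK point sits below the others.

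The genes of the set past 1.5-fold in any comparison were Spry2 and Spry4. With Met-ENK, 1 of the 10 was lower than in unstimulated cells by at least 1.5-fold and 0 were higher. Among all 15037 named genes, 7.19% differed by this much, 4.21% being lower and 2.98% higher. With β-END(1-9), 1 gene of the set was higher by at least 1.5-fold and 0 were lower, against 4.61% of all named genes in either direction, 2.64% higher and 1.97% lower. Between the peptides, 2 genes were lower by this much with Met-ENK than with β-END(1-9) and 0 were higher, against 5.56% in either direction, 3.05% lower and 2.51% higher. The counts come from Spry2 and Spry4 alone, and in a set of this size 1 gene is already 10%. The median log2 difference of the 10 genes was 0.06 for Met-ENK relative to control, -0.03 for β-END(1-9) relative to control and 0.04 between the peptides, and that of all named genes was 0.00 in each. The negative median with β-END(1-9) turned to 0.04 after a new quantile normalization. Both peptides are compared with the same control array, so their differences from it are not separate measurements.

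Spry2, the Sprouty gene above background, was lower on the Met-ENK array. Its log2 signal was 10.81 in unstimulated cells, 10.14 after Met-ENK and 10.81 after β-END(1-9). The control and β-END(1-9) arrays held exactly the same value, and Met-ENK alone stood below. The log2 difference was -0.67 for Met-ENK against either of the other arrays, which is 1.59-fold. Of 2130 named genes whose mean signal lay within 1 log2 unit of that of Spry2, 85 genes or 3.99% were at least as low as Spry2 in Met-ENK against control. In Met-ENK against β-END(1-9) the share was 1.41%. The difference from control stayed past 1.5-fold under 3 other scalings, between -0.60 after quantile normalization and -0.69 after median centring.

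The array with Met-ENK held many lower genes with a short genomic span, the distance from start to end of a gene in assembly GRCr8, and Spry2 has a short span of 5.12 kb. Among 7519 named genes whose mean signal was at or above the median of 6.41, 453 were at least 1.5-fold lower and 52 higher with Met-ENK than control. After quantile normalization these counts were 340 and 90, with 79.1% lower in place of 89.7%. In the quintile with the shortest spans, up to 8.07 kb, 13.6% of 1504 genes were at least 1.5-fold lower, against 1.53% in the quintile with the longest. Within the shortest quintile, 9.91% of genes were at least as low as Spry2 in Met-ENK against control, and 4.65% in Met-ENK against β-END(1-9). With the trend of the difference along span removed, Spry2 differed from control by -0.65. That trend was fitted over all named genes and not over the 7519 alone. The median of the shortest quintile among the 7519 was -0.09. The step therefore need not take out the trend among these genes, and it leaves the wider spread of the shortest class in place.

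**Figure D2:**
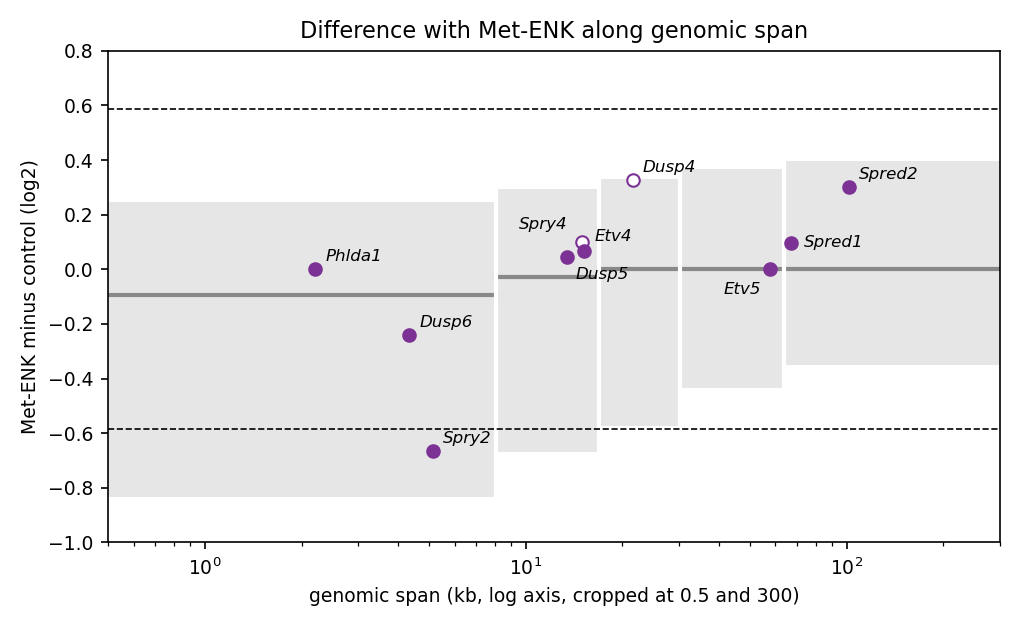
Log2 difference of Met-ENK minus control (vertical axis) against genomic span in kb (log axis) for the 10 ERK feedback regulators, filled where the mean signal was at or above the median of named genes. Shaded boxes give the 5th to 95th percentile and grey lines the median of the genes in each quintile of spans, and dashed lines mark 1.5-fold. Spry2, at 5.12 kb, lies past 1.5-fold but inside the shaded box of its class.

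The genes nearest to Spry2 over the 3 log2 signals, by Euclidean distance among all other named genes, were Ndufa5 (distance 0.11), Mrpl27 (0.14) and Aifm1 (0.17). Ndufa5 had 10.76 in unstimulated cells, 10.23 after Met-ENK and 10.76 after β-END(1-9). Like Spry2 it was lower with Met-ENK alone, by a log2 difference of -0.53. Mrpl27 differed by -0.83 and Aifm1 by -0.62 with Met-ENK, and by -0.18 and -0.10 with β-END(1-9). Over 3 arrays such nearness says only that the signals were alike in size and order.

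Spry4, the other Sprouty gene of the set, was higher on the β-END(1-9) array, at a signal within the background range. It had 2.97 in unstimulated cells, 3.07 after Met-ENK and 3.75 after β-END(1-9). The control and Met-ENK values lay close together, at a log2 difference of 0.10, and β-END(1-9) stood above both. The log2 difference was 0.78 against control, which is 1.72-fold, and -0.68 for Met-ENK against β-END(1-9), which is 1.60-fold. Of 3633 named genes within 1 log2 unit of its mean signal, 1.51% were at least as high with β-END(1-9). In this low range 3.94% of genes were at least 1.5-fold higher with β-END(1-9) than control and 1.24% lower, so higher values prevailed there. Nearest to Spry4 over the 3 arrays were Ppp1r17 (distance 0.12), RT1-M1-4 (0.13) and Rnase1 (0.17), all at signals within the background range. Spry3, a further Sprouty gene, was picked with its values known. Its signal was 6.65 in unstimulated cells, 5.89 after Met-ENK and 5.92 after β-END(1-9), all within the background range. The control value was the highest, with log2 differences of -0.77 for Met-ENK and -0.73 for the other peptide.

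The Spred genes, whose products restrain RAS and RAF signalling at the membrane, were above background and below 1.5-fold in every comparison. Spred2 had 12.86 in unstimulated cells, 13.16 after Met-ENK and 12.72 after β-END(1-9). Its highest value came with Met-ENK and its lowest with β-END(1-9), with control between them. Relative to control the log2 difference was 0.30 after Met-ENK and -0.14 after β-END(1-9), and it was 0.44 between the peptides, or 1.36-fold. Of 1081 genes within 1 log2 unit of its mean, 5.64% were at least as high with Met-ENK relative to β-END(1-9). Spred2 has a span of 101.6 kb, in the longest quintile, where 10.1% of genes were at least as high in that comparison. With the span trend removed the difference between the peptides was 0.39. Quantile normalization brought the difference of β-END(1-9) from control to -0.03. Spred1 had 12.09 in unstimulated cells, exactly the same after β-END(1-9), and 12.18 after Met-ENK. Its farthest log2 difference was 0.10, and in each comparison its difference was smaller than that of Spred2.

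Of the phosphatases, Dusp6, known for its preference for ERK and its role as a feedback transcript, was lower with both peptides than on the shared control array. It had 14.06 in unstimulated cells, 13.81 after Met-ENK and 13.78 after β-END(1-9). Both peptides lay below control, at log2 differences of -0.24 (Met-ENK, 1.18-fold) and -0.28 (β-END(1-9), 1.21-fold). The peptide arrays differed from each other by 0.04, a value that changed sign under quantile and loess scaling. Among 672 genes within 1 log2 unit of its mean, 18% were at least as low with Met-ENK and 11.3% with β-END(1-9). Dusp6 lies in the quintile of shortest spans, where these shares were 36.5% and 17.6%. After quantile normalization the differences from control were -0.17 and -0.16.

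Dusp5, the nuclear phosphatase that also anchors ERK there, had 10.45 in unstimulated cells, 10.50 after Met-ENK and 10.23 after β-END(1-9). Control and Met-ENK were close, with a log2 difference of 0.05, and β-END(1-9) was lower than control by a log2 difference of -0.22, which was -0.13 after quantile normalization. Of 2202 genes within 1 log2 unit of it, 20.1% were at least as low with β-END(1-9). Dusp4, which acts on ERK, JNK and p38, had 4.17 in unstimulated cells and exactly 4.50 after either peptide, all within the background range. Its log2 difference from control was 0.33 with either peptide, which is 1 value and not a repeated measurement. Of 4956 genes within 1 log2 unit of its mean, 16.3% were at least as high with Met-ENK and 16% with β-END(1-9).

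Of the ETS factors in the set, Etv4 was lowest on the β-END(1-9) array, at signals in the upper part of the background range. It had 7.44 in unstimulated cells, 7.50 after Met-ENK and 7.06 after β-END(1-9). Control and Met-ENK lay close together, at a log2 difference of 0.07, and β-END(1-9) lay below control by a log2 difference of -0.38 or 1.30-fold. The peptides differed by 0.45, or 1.36-fold. Of 2132 genes within 1 log2 unit of its mean, 11.4% were at least as low with β-END(1-9) relative to control, and 6.24% at least as high in Met-ENK against β-END(1-9). Etv5, which often acts alongside Etv4, had 7.93 on the control and Met-ENK arrays, exactly equal, and 7.87 with β-END(1-9). Its difference of -0.05 from control turned to 0.02 after quantile normalization. Phlda1 had the same signal of 7.87 on all 3 arrays. Both genes lay just above the upper end of the background range.

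**Figure D3:**
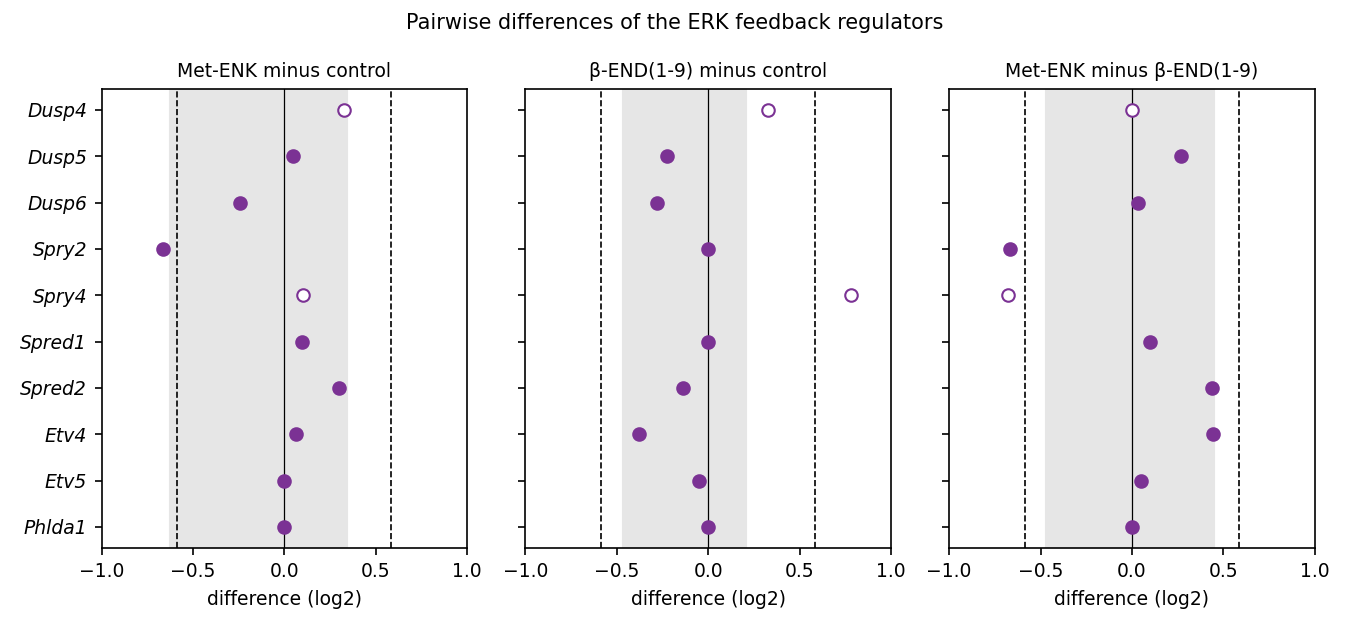
Log2 difference (horizontal axis) of each of the 10 ERK feedback regulators in the 3 pairwise comparisons, open where the mean signal was below the median of named genes. Shading covers the 5th to 95th percentile of the 7519 genes at or above it, and dashed lines mark 1.5-fold. Spry2 lies past the lower line in both comparisons with Met-ENK, and Spry4 past a line in both comparisons with β-END(1-9).

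Exactly equal signals were frequent in this set and in the table as a whole. At least 2 arrays shared 1 value for 5 of the 10 genes (Dusp4, Spry2, Spred1, Etv5 and Phlda1) and for 52.4% of all named genes. Phlda1 was equal on all 3 arrays, as were 15.5% of named genes. In all, 7 of the 30 differences of the set were exactly 0. An exact 0 therefore cannot be read as a precise measurement of no change, and how these ties arose was not tested.

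Among the 8 genes of the set at or above the median signal, β-END(1-9) was lower than control for 5 (Dusp5, Dusp6, Spred2, Etv4 and Etv5), equal for 3 and higher for 0. Of all 7519 such genes, 56.1% were lower, 25.1% equal and 18.8% higher, so lower values prevailed among all genes at this level too. Over all 10 genes of the set, 2 were higher and 5 lower with β-END(1-9), which turned to 6 higher and 4 lower after quantile normalization. Shares of all genes by sign were counted on the deposited scale alone. Met-ENK was higher than control for 4 of the 8, lower for 2 (Dusp6 and Spry2) and equal for 2. Of the 7519 genes, 32.7% were higher and 45.7% lower in that comparison. Between the peptides, Met-ENK was the higher for 6 of the 8, against 45.4% of the 7519 genes. The lower one was Spry2, and Phlda1 was equal.

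Genes of the surrounding pathway were described by lists chosen by function. Of the cascade from receptors to ERK, 21 of 28 listed genes were measured, and 0 differed by 1.5-fold in any of the 3 comparisons. The other 7 were not analysed here. Egfr, the EGF receptor gene, had 10.20 in unstimulated cells, 10.25 after Met-ENK and 10.16 after β-END(1-9). Rps6ka2, a kinase downstream of ERK, differed most at signals within the background range, with 5.18 in unstimulated cells, 5.53 after Met-ENK and 5.75 after β-END(1-9). Sos2, an exchange factor that activates RAS, differed most among the genes at or above the median signal, with 9.29 in unstimulated cells, 9.78 after Met-ENK and 9.27 after β-END(1-9). Its log2 difference was 0.49 for Met-ENK against control and 0.50 against β-END(1-9). The median of the 21 genes was 0.00 in each comparison. After quantile normalization it was 0.08 for either peptide against control, with 17 genes higher and 4 lower for Met-ENK and 15 and 6 for β-END(1-9). The shares of all genes higher or lower under that scaling were not counted. Phlda1, equal on all 3 arrays as deposited, was higher than control by 0.08 with Met-ENK and 0.07 with β-END(1-9) under it.

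Of 9 other MAP kinase phosphatases, 0 passed 1.5-fold. Dusp16, which acts mainly on JNK and p38, came closest with 8.49 in unstimulated cells, 9.00 after Met-ENK and 8.55 after β-END(1-9). Its log2 difference of 0.50 from control with Met-ENK reached 0.59 after quantile normalization, just past 1.5-fold. Dusp1, the stress-induced member, lay within the background range at 6.68 in unstimulated cells, 6.81 after Met-ENK and 6.68 after β-END(1-9). The list median relative to control was 0.07 after Met-ENK and 0.00 after β-END(1-9). Quantile normalization brought these to 0.14 and 0.05, with all 9 genes higher in both.

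Of 10 measured genes among 16 listed other inhibitors, 2 were at least 1.5-fold lower with Met-ENK than control and 0 higher. They were Spry3 and Pebp1, which encodes an inhibitor that binds RAF. Pebp1 had 13.12 in unstimulated cells, 12.44 after Met-ENK and 12.89 after β-END(1-9). The Met-ENK value was the lowest, by a log2 difference of -0.69 from control. With β-END(1-9), Spry3 was the 1 gene lower and 0 were higher, and between the peptides 0 passed. The list median was 0.05 for Met-ENK, or 0.14 after quantile normalization. For β-END(1-9) it was -0.10, with 7 genes lower and 2 higher, and quantile normalization brought it to -0.003 with 5 and 5. Of all named genes, 39.5% were lower and 30.8% higher with β-END(1-9) on the deposited scale.

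All 21 other transcripts known to follow ERK activity were measured. With Met-ENK, 1 was at least 1.5-fold lower than control, Phlda2, a relative of Phlda1. It had 8.69 in unstimulated cells, 7.91 after Met-ENK and 8.17 after β-END(1-9), a log2 difference of -0.78 for the former peptide and -0.53 for the latter. Phlda3, a p53-responsive member of that family, had 10.82, 10.45 and 10.80 in that order. Fos, an immediate early gene named with its values known, was the gene at least 1.5-fold higher with β-END(1-9), at 5.58 against 4.78 in unstimulated cells and 4.77 after Met-ENK. All of these values lie within the background range. It was also the gene past 1.5-fold between the peptides, at -0.82. Lif, a cytokine gene above background, was just short of it at 0.57 and past it at 0.59 after median centring. Cyclin D1 (Ccnd1) had 13.67 in unstimulated cells, 13.41 after Met-ENK and 13.47 after β-END(1-9). The list median was -0.06 with either peptide and 0.00 between them. Against control 13 were lower and 5 higher with Met-ENK, and 15 and 3 with β-END(1-9). Of the 7519 genes at or above the median signal, 45.7% and 56.1% were lower. After quantile normalization the medians were -0.05 and -0.03, with 11 lower and 10 higher in both. The list had a median span of 9.45 kb. Medians with Met-ENK in the 2 shortest quintiles were -0.09 and -0.03, and the part of span was not tested.

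Of 18 measured ETS factors outside the set, 1 was at least 1.5-fold higher with Met-ENK than control, Fli1, a factor of blood and endothelial lineages. It had 6.01 in unstimulated cells, 6.89 after Met-ENK and 6.34 after β-END(1-9), within the background range. With β-END(1-9), 0 passed 1.5-fold against control, while 13 of the 18 were lower and the list median was -0.21, or -0.13 after quantile normalization. Between the peptides, 15 of the 18 were higher with Met-ENK, with a median of 0.24. This median ranged from 0.20 to 0.26 under the other scalings and with the span trend removed. Of all named genes, 39.5% were lower with β-END(1-9) than control and 39.1% higher with Met-ENK than with β-END(1-9). Among the 7519 at or above the median signal these shares were 56.1% and 45.4%. The 2 ETS factors past 1.5-fold between the peptides were Elf2 (0.61) and Spdef (0.78). Elf2 had 8.24 in unstimulated cells, 8.35 after Met-ENK and 7.74 after β-END(1-9), and was below 1.5-fold at 0.56 with the span trend removed. Spdef, also named with its values known, had 4.79 in unstimulated cells, 5.36 after Met-ENK and 4.58 after β-END(1-9), within the background range. Gabpa, Ets2 and Elk3, all above background, shared the order of Etv4 in part, with β-END(1-9) lowest at log2 differences from control of -0.25, -0.25 and -0.34. Of the 18, 4 were higher with β-END(1-9) than control. Among these was Etv1, a relative of Etv4, with 4.24 in unstimulated cells, 4.32 after Met-ENK and 4.59 after β-END(1-9), within the background range. It was the 1 gene of the list lower with Met-ENK than with β-END(1-9), at -0.27. Markers of basal keratinocytes had a median of 0.30 between the peptides, in the same direction, and their part in this difference was not tested.

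**Figure D4:**
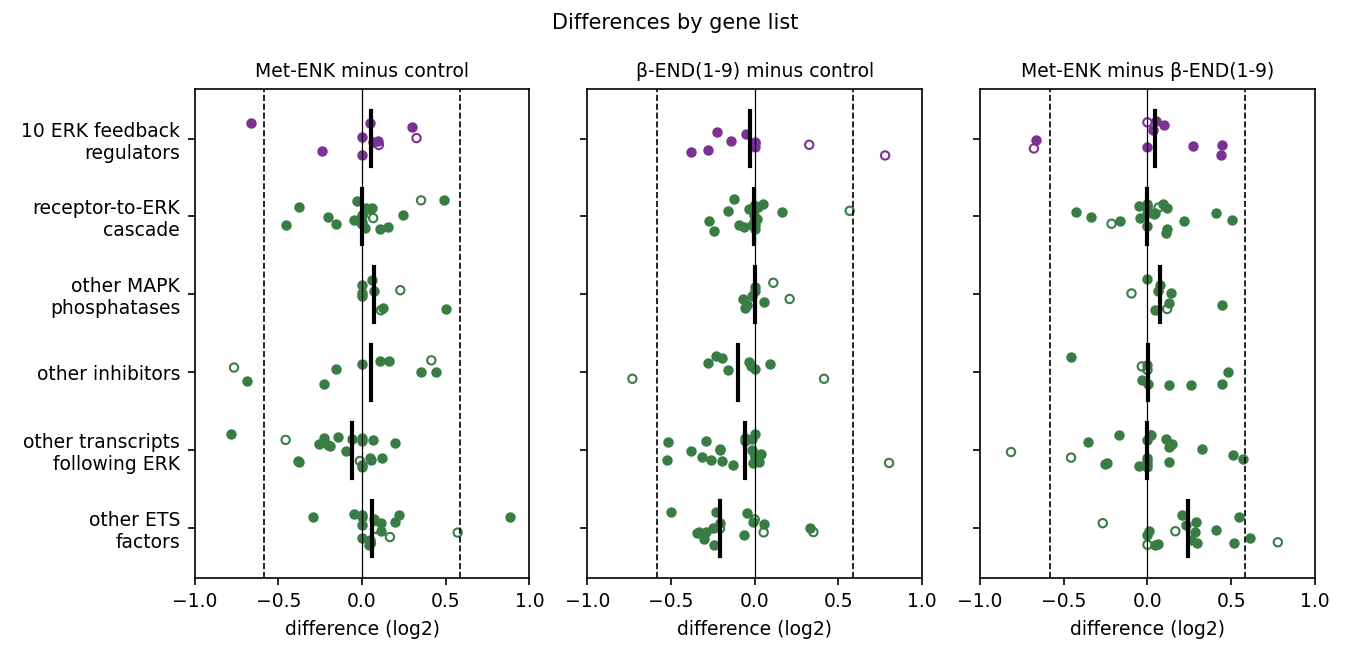
Log2 differences (horizontal axis) in the 3 comparisons for the 10 ERK feedback regulators and the 5 lists of surrounding genes, 1 point per gene with random vertical scatter, open where the mean signal was below the median of named genes. Black bars are list medians and dashed lines mark 1.5-fold. On the deposited scale the ETS factors have medians of -0.21 with β-END(1-9) against control and 0.24 between the peptides.

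Over these 5 lists together, 4 of 79 genes (5.06%) differed by 1.5-fold for Met-ENK against control, 2 (2.53%) for β-END(1-9) against control and 3 (3.8%) between the peptides. Among all named genes the shares were 7.19%, 4.61% and 5.56%. Most genes of each list were at or above the median signal, and among all 7519 such genes the shares were 6.72%, 2.83% and 4.59%. In the lists, 1 gene of 79 moves a share by over a percentage point. Under the other scalings and with the span trend removed, the counts ranged from 4 to 5 for Met-ENK and from 2 to 4 between the peptides, and stayed at 2 for β-END(1-9).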

How the data were processed

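RNA of FRSK keratinocytes was measured on 3 Affymetrix arrays, 1 for each group, and groups were read from the sample titles. The table deposited by the authors holds a log2 signal for each probe set. Per the submitters' processing notes, RMA was used, with the Expression Console and Transcriptome Analysis Console of Affymetrix. RMA corrects background, quantile-normalizes and summarises probes. The sources used here give no versions, annotation release or genome build. Probe sets were named through the platform annotation, which gives 1 symbol for 15049 of 23188 gene probe sets and stands for 15037 genes. Where a gene had more than 1 probe set, that of highest mean signal stood for it. The level filter keeps the 7519 genes with a mean at or above the median of named genes, 6.41.

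Differences are simple subtractions of log2 signals. No test was run, since no group has a second array, and the number of arrays limits the precision. Alternative scalings (quantile, median centring, cyclic loess) used limma 3.58.1 in R 4.3.3, except that centring and the removal of the trend along log10 genomic span (lowess, fraction 0.3, statsmodels 0.14.6, spans from GRCr8) were done in Python 3.11.15. The counting code was tested on simulated data. Named from the surrounding lists were the genes past 1.5-fold that pass the level filter, at most 4 per list and comparison. Where a list had none, its farthest gene was named. Relatives were named besides, with background examples such as Egfr, Dusp1, Phlda3 and Ccnd1, which were picked by role. Gabpa, Ets2 and Elk3 were named outside this rule, as ETS factors that shared the order of Etv4 in part. Rps6ka2 and Lif were also named outside it, with their values known. The members, lists and rules were chosen with earlier results of these data known.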

Additional observations from a re-analysis of the deposited data

How the results depend on the processing

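All 120 recomputed differences of the 10 genes, from 30 differences under 3 other scalings and removal of the span trend, kept their side of 1.5-fold. Averaging probe sets changes nothing here, since each of the 10 genes has 1. Small differences changed sign in 3 of the 120, Etv5 with β-END(1-9) and Dusp6 between the peptides, none larger than 0.05. The fold threshold sets the counts. At 2-fold the number of genes of the set was 0 in each of the 3 comparisons. At a lower limit of 0.32 on the log2 scale it was 2 for Met-ENK, 3 for β-END(1-9) and 4 between the peptides, in place of 1, 1 and 2. The shares of all named genes at these other limits were not counted, so these counts are no result about the set. Differences of that size were common. Of 4956 genes within 1 log2 unit of the mean of Dusp4, 22.9% differed from control by at least its 0.33 in either direction with Met-ENK. With β-END(1-9) this share was 21.1%. Keeping to genes that pass the level filter left 0 for β-END(1-9) and 1 between the peptides. The same filter left 0 of the 2 genes of the 5 surrounding lists for β-END(1-9) and 1 of 3 between the peptides. For all genes passing the level filter, β-END(1-9) had 171 lower and 42 higher, or 80.3% lower, and 64.8% lower after quantile normalization. No paired analysis was possible because each group has 1 array. Differences of genes within the background range are limited by their signal, and no setting tried here replaces a second culture.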

Other observations

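Some other genes at background level were, like Spry4 and Fos, higher on the β-END(1-9) array. Among the 6 endothelial markers, none above background, Vwf, the von Willebrand factor gene, had 3.45 in unstimulated cells, 3.45 after Met-ENK and 4.17 after β-END(1-9). Kdr, a receptor for vascular endothelial growth factor, had 4.41, 4.76 and 5.09 in that order. Both were named with their values known, and they were the 2 of 6 at least 1.5-fold higher with β-END(1-9), against 2.64% of all named genes. At low signals this share was larger. It was 3.94% within 1 log2 unit of the mean of Spry4 and 5.31% within 1 log2 unit of that of Dusp4. Of the others, Cdh5 and Tek differed by 0.24 and 0.13, Tie1 was equal and Pecam1 was lower at -0.24. The log2 difference from control with β-END(1-9) was 0.72 for Vwf and 0.68 for Kdr, close to the 0.78 of Spry4 and the 0.80 of Fos.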
